A study of Mus musculus with 8 samples.

Results

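The 10 genes described here encode the NF-kappaB subunits (Nfkb1, Nfkb2, Rel, Rela and Relb), the inhibitors that hold them in the cytoplasm (Nfkbia, Nfkbib and Nfkbie), the deubiquitinase A20 (Tnfaip3) and a catalytic subunit of the IkappaB kinase (Ikbkb). They were taken by symbol from the 53465 genes counted in the series, and their RNA was compared between C57BL/6J mice and NOD/ShiLtJ mice (NOD below), an inbred strain that develops autoimmune diabetes. Both groups were CD4+ CD8+ (double-positive) T cell precursors sorted from the thymus, with no treatment named in the labels, and the age and sex of the mice are not given in the sources used here. In each strain there were 4 libraries of 2 samples, numbered 1 and 2 by the B number in their titles, and the libraries of a sample, numbered by the T number, were summed for every test (n = 2 samples per strain). The labels do not tie a B number to an animal, and the p-values therefore speak only of how far these samples spread, and that spread may be technical.

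NF-kappaB factors are dimers of Rel-family proteins that wait in the cytoplasm bound to IkappaB proteins. The IkappaB kinase phosphorylates the inhibitors, which are then degraded, and the freed dimers enter the nucleus and bind kappaB sites in promoters and enhancers. Several pathway genes are themselves targets, among them Nfkbia and Tnfaip3, whose products shut the signal off again. In the thymus the pathway is known for its part in the survival and selection of thymocytes downstream of the T cell receptor and of receptors of the tumour necrosis factor family.

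Promoters were searched for the letters of kappaB sites. RefSeq (GRCm38.p6) windows from 250 bases before to 50 bases after a transcript start were at hand for 7 of the 10 genes, all but Nfkb1, Relb and Ikbkb, and were searched on both strands for the kappaB decamer consensus. A match was found for 5 of the 7 (71.4%), namely Nfkb2, Rel, Nfkbia, Nfkbie and Tnfaip3, and for 1388 of all 27025 genes with a window (5.14%), or 4.51% of all 32851 windows. Rela and Nfkbib had no match in their windows. The 150 bases before the first listed start of each of the 5 genes are printed below because they hold these matches. They are written 5′ to 3′ on the strand of the gene, with the matched bases in capitals.
Nfkb2, chr19:46304587-46304736, plus strand: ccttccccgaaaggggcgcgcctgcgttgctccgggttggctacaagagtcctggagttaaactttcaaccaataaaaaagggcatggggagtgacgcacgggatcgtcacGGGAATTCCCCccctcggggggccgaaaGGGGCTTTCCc
Rel, chr11:23770970-23771119, minus strand: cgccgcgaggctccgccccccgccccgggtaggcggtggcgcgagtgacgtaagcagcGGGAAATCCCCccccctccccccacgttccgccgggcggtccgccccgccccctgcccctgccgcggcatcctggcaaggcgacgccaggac
Nfkbia, chr12:55492648-55492797, minus strand: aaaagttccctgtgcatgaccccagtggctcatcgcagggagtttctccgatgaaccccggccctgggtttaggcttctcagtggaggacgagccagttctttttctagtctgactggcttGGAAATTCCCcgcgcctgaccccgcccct
Nfkbie, chr17:45555550-45555699, plus strand: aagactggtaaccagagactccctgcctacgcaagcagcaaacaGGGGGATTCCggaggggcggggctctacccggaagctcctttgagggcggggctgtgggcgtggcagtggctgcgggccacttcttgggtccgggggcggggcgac
Tnfaip3, chr10:19015411-19015560, minus strand: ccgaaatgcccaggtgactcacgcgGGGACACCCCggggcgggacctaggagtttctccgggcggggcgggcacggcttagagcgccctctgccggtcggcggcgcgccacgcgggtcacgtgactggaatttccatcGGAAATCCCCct
The first capital run of Nfkb2 and the run of Rel each hold overlapping matches on both strands. The run of Nfkbia and the second run of Tnfaip3 match on the opposite strand, so the decamer there is GGGAATTTCC and GGGGATTTCC, respectively. The match of Nfkbie, GGGGGATTCC, begins 106 bases before the start and lies on the strand of the gene, while that of Nfkbia begins 29 bases before it. A match is a description of the letters and not a bound site.

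**Figure D1:**
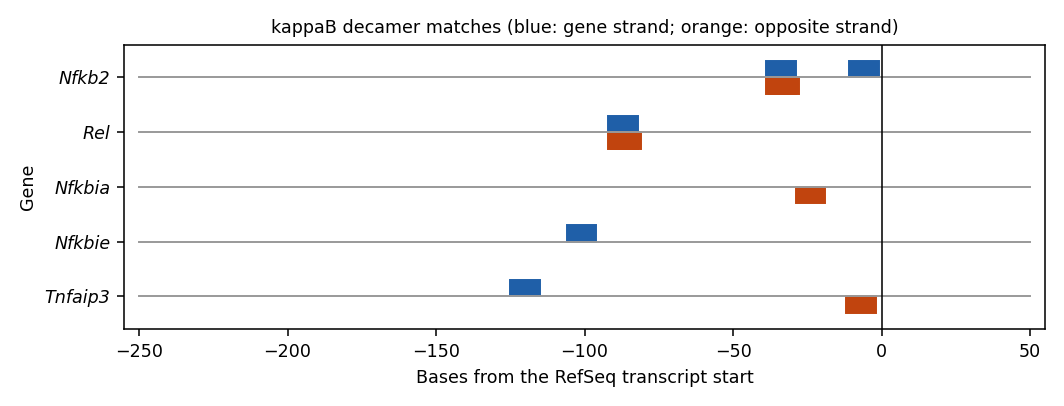
Positions of kappaB decamer matches in the first listed RefSeq window of 5 genes; the x axis is the distance in bases from the transcript start (vertical line), grey lines are the windows, and boxes are matches on the strand of the gene (above the line, blue) or the opposite strand (below, orange). All the matches in these windows lie within 125 bases before the start.

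The libraries held 8.527 to 15.702 M reads in genes in C57BL/6J and 23.533 to 30.371 M in NOD, and 39.98% to 53.94% and 46.56% to 59.08% of listed reads fell outside annotated genes. Each of the 10 genes had at least 42 reads in every library. Of 15 markers of the double-positive stage, 1 passed the test, against 3.68% of all tested genes. It was Aqp11, lower in NOD, named after its value was seen. Rag1, a subunit of the recombinase, stood at 8998 ± 796 CPM (counts per M reads in tested genes; mean ± SD over the 2 samples of a strain, here and below) in C57BL/6J against 5902 ± 950.3 CPM in NOD (adjusted p = 0.217, edgeR). Satb1 and Tcf7, the other most abundant markers of the stage, stood at 5852 and 4027 CPM in C57BL/6J against 4885 and 3200 CPM in NOD. For 7 of the 15 all NOD libraries lay below all C57BL/6J libraries, against 1555 of all 17291 tested genes. For 1, Ptcra, all NOD libraries lay above (28.0 ± 10.5 and 48.2 ± 0.792 CPM), against 1408 of all tested genes. The part of these marker differences in the values of the 10 genes was not tested. These are bulk libraries, in which fewer cells of a type and less RNA per cell cannot be told apart. CPM are scaled by the TMM factors of edgeR, and a log2 fold change above 0 means more RNA in NOD; each is given ± its standard error.

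None of the 10 genes passed the test of the strain difference at an adjusted p of 0.05 (edgeR quasi-likelihood test, adjusted over all 17291 tested genes), against 3.68% of all tested genes. At an unadjusted p under 0.05 there was 1 of 10, Nfkbie, against 13.1% of all tested genes, and DESeq2 and limma with voom also called 0 of the 10. Their fitted values were split evenly, 5 above and 5 below 0, with a median of -0.002 beside 0.02 for all tested genes. The median size of the difference without regard to sign was 0.20 on the log2 scale, beside 0.27 for all tested genes. The 95% intervals, which are per gene and not adjusted, lay wholly within a 2-fold change in either direction for 9 of the 10, all but Relb, and for 46.0% of all tested genes. For these 9 genes a difference as large as 2-fold lay outside the interval. The median standard error was 0.18 for the 10 genes and 0.33 for all tested genes, and a smaller standard error narrows the interval. The count of intervals within 2-fold is therefore no measure of how stable the 10 genes are between the strains.

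**Figure D2:**
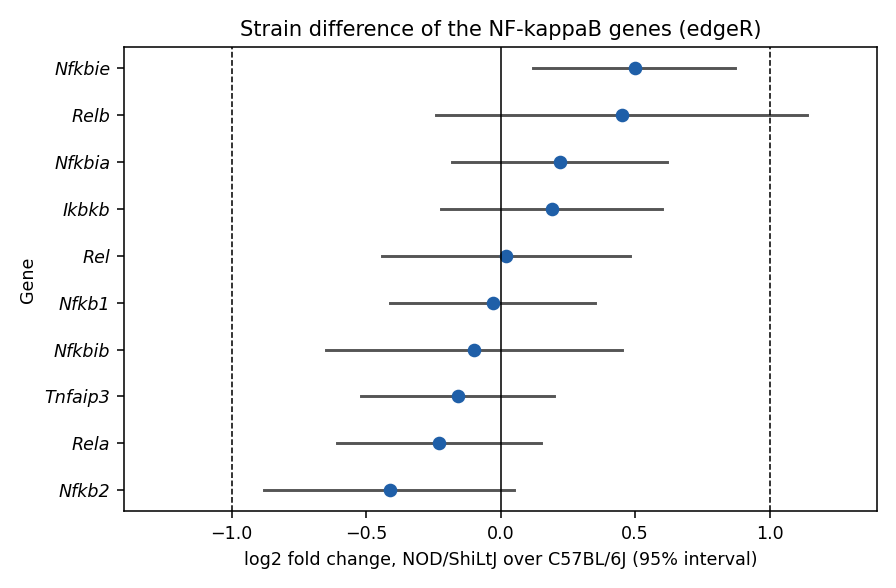
Fitted log2 fold change (x axis, NOD/ShiLtJ over C57BL/6J, edgeR) of each of the 10 genes (y axis) with its 95% interval as a bar; dashed lines mark 2-fold in either direction. The interval of Nfkbie, 0.12 to 0.87, is the only one that does not include 0, and that of Relb is the only one that crosses a dashed line.

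Among the subunits, Rela encodes p65, the main activating partner of the classical dimer (ENSMUSG00000024927, GRCm38 chromosome 19, 5637483 to 5648130, plus strand). Its level was 100.2, 86.1, 81.2 and 78.5 CPM in the C57BL/6J libraries (sample 1 libraries 1 and 2, then sample 2 libraries 1 and 2, an order kept for every gene below) and 71.0, 66.4, 71.8 and 84.5 CPM in the NOD libraries. The strains overlapped through the last NOD library, and the fitted difference was -0.23 ± 0.17 (adjusted p = 0.696). It was -0.13 when C57BL/6J sample 1 was left out and -0.15 when NOD sample 1 was left out, within a range of -0.34 to -0.13 over the alternatives. Nfkb1 encodes p105, the precursor of p50, the usual partner of p65 (ENSMUSG00000028163, chromosome 3, 135584655 to 135691547, minus strand). It stood at 94.2, 80.4, 103 and 107 CPM in C57BL/6J against at 92.6, 88.1, 95.5 and 97.5 CPM in NOD, so that the NOD libraries lay inside the C57BL/6J range. The difference was -0.03 ± 0.17 (95% interval -0.41 to 0.35, adjusted p = 0.972). Rel encodes c-Rel, a lymphoid subunit that is induced by antigen receptors (ENSMUSG00000020275, chromosome 11, 23736847 to 23770970, minus strand). Its libraries held 24.7, 27.9, 31.9 and 34.1 CPM in C57BL/6J against 32.4, 25.0, 32.4 and 27.8 CPM in NOD. Here too the NOD values fell within the C57BL/6J range (0.02 ± 0.20, interval -0.44 to 0.48, adjusted p = 0.980).

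The subunits of the alternative pathway, which is driven by receptors such as that of lymphotoxin beta, differed in sign. Nfkb2 encodes p100, which is processed to p52 and in its long form acts as an inhibitor (ENSMUSG00000025225, chromosome 19, 46304320 to 46312385, plus strand). It was at 28.8, 22.0, 25.1 and 22.3 CPM in C57BL/6J against at 21.2, 15.2, 18.3 and 19.3 CPM in NOD. All 4 NOD libraries lay below the C57BL/6J libraries, by a narrow margin, and the fitted difference was -0.41 ± 0.20 (interval -0.88 to 0.05, adjusted p = 0.463). Relb, its usual partner (ENSMUSG00000002983, chromosome 7, 19606217 to 19629438, minus strand), was the scarcest of the 10. It had 6.08, 4.28, 6.18 and 5.95 CPM in C57BL/6J against 7.48, 7.54, 7.15 and 8.69 CPM in NOD. Every NOD library was above every C57BL/6J library, and the difference of 0.45 ± 0.31 had the widest interval (-0.24 to 1.14, adjusted p = 0.657).

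The inhibitors gave the largest fitted difference of the set. Nfkbie encodes IkappaB epsilon, an inhibitor that is induced by NF-kappaB and binds p65 and c-Rel dimers (ENSMUSG00000023947, chromosome 17, 45555703 to 45563169, plus strand). Its level was 63.7, 74.5, 60.1 and 59.1 CPM in C57BL/6J against 95.9, 89.8, 81.1 and 91.1 CPM in NOD, or 63.5 ± 5.50 and 89.7 ± 5.26 CPM over samples. All 4 NOD libraries stood above the 4 C57BL/6J libraries. The fitted ratio was 1.41-fold (interval 1.09 to 1.83; log2 0.50 ± 0.17), with an unadjusted p of 0.0146 and an adjusted p of 0.187 (edgeR), which does not pass. Across the 11 alternatives in which it was fitted, its log2 difference ranged from 0.38 to 0.58 and its adjusted p from 0.0665 to 0.548.

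Nfkbia encodes IkappaB alpha, the inhibitor that is broken down and made again fastest after a signal (ENSMUSG00000021025, chromosome 12, 55489410 to 55492647, minus strand). Its libraries held 158, 135, 113 and 115 CPM in C57BL/6J against 155, 141, 138 and 167 CPM in NOD. The C57BL/6J samples differed from each other, at 146 and 113 CPM, while the NOD samples stood at 149 and 152 CPM. The strain difference was 0.22 ± 0.18 (adjusted p = 0.740), and it ranged from 0.036 to 0.41 over the alternatives. Leaving out C57BL/6J sample 2 gave the lower end, and leaving out sample 1 of that strain the upper end. Nfkbib encodes IkappaB beta, a slower-acting inhibitor (ENSMUSG00000030595, chromosome 7, 28758251 to 28767512, minus strand). It stood at 24.6, 22.6, 16.5 and 17.0 CPM in C57BL/6J against at 16.6, 17.8, 18.3 and 22.1 CPM in NOD, with the C57BL/6J samples on either side of most NOD libraries. Its difference was -0.10 ± 0.25 (adjusted p = 0.927), and the sign changed when C57BL/6J sample 1 (0.16) or NOD sample 1 (0.0053) was left out. The exons of Nfkbib overlap those of Sirt2 on the opposite strand, which stood at 45.1 and 41.6 CPM, and the strand setting of the counting was not given in the sources used here.

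Of the regulators, Tnfaip3 encodes A20, which removes ubiquitin chains from signalling complexes (ENSMUSG00000019850, chromosome 10, 19000910 to 19015657, minus strand). It had the highest CPM of the set, with 193, 188, 201 and 200.1 CPM in C57BL/6J against 186, 168, 162 and 175 CPM in NOD. The NOD libraries lay just below the C57BL/6J libraries, and the difference was -0.16 ± 0.16 (interval -0.52 to 0.20, adjusted p = 0.797). Ikbkb encodes IKK beta, the kinase of the classical pathway (ENSMUSG00000031537, chromosome 8, 22659212 to 22706589, minus strand). It was at 92.1, 109.6, 124 and 134 CPM in C57BL/6J against at 136, 134, 136 and 105 CPM in NOD, so that the strains overlapped (0.19 ± 0.18, adjusted p = 0.788). It was 0.0094 when C57BL/6J sample 1 was left out and 0.38 when sample 2 of that strain was left out, and 0.11 when NOD sample 1 was left out.

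**Figure D3:**
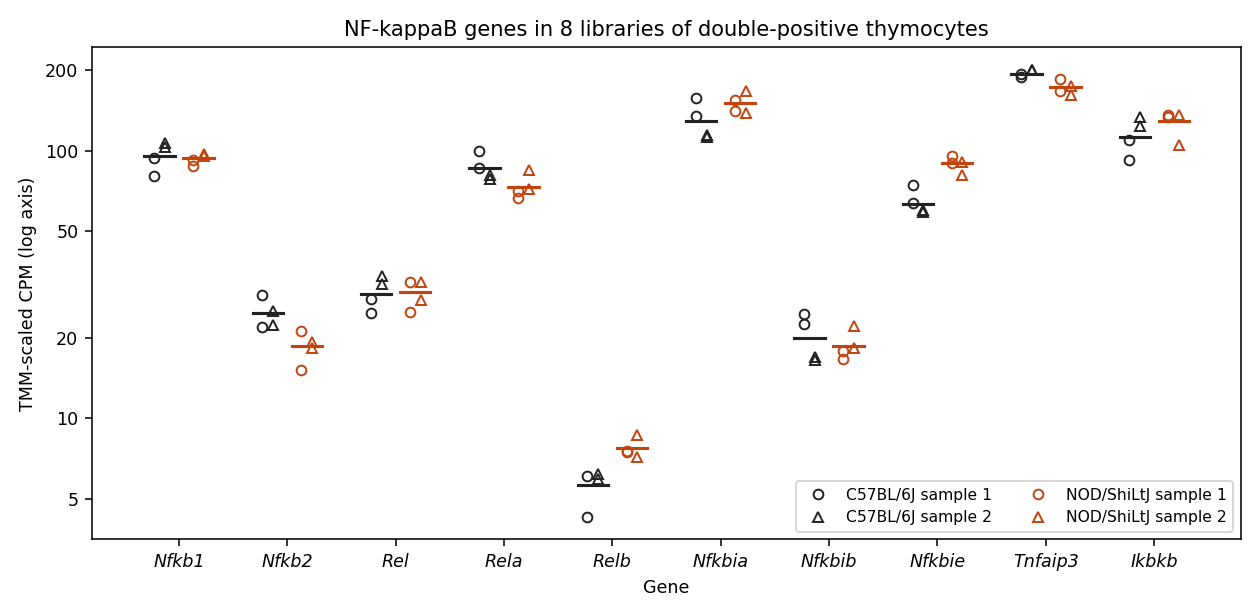
Level of each of the 10 genes (x axis) in the 8 libraries, in TMM-scaled CPM on a log y axis; symbols are libraries (circles for sample 1, triangles for sample 2), black for C57BL/6J and orange for NOD/ShiLtJ, and horizontal lines are means of the 2 summed samples. The strains separate for Nfkbie and Relb (NOD above) and narrowly for Nfkb2 and Tnfaip3 (NOD below).

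For 4 of the 10 genes the strains had no library in common range, against 17.1% of all tested genes. NOD was above for 2 of them, Nfkbie and Relb (8.14% of all tested genes), and below for Nfkb2 and Tnfaip3. Without the TMM factors of the libraries, which ran from 0.9105 (C57BL/6J sample 1 library 1) to 1.0524 (NOD sample 1 library 1), the count was 2, Nfkbie and Relb. The shares of all tested genes given here were taken with the TMM factors, so they are no measure for the count without them. Libraries that share a sample are not independent, and no test was made of this count.

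The 5 genes with a kappaB match in the promoter did not share a direction. Nfkbie and Nfkbia had fitted differences of 0.50 and 0.22, Rel was at 0.02, and Tnfaip3 and Nfkb2 were at -0.16 and -0.41. The 2 genes with a window but no match, Rela and Nfkbib, were at -0.23 and -0.10. None of these passed the test.

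Levels of different genes were compared per kilobase of merged exons (RPKM). Nfkbia stood apart at the top, with 80.3 ± 14.3 RPKM in C57BL/6J and 93.3 RPKM in NOD (libraries 85.6 to 104 RPKM). Next in C57BL/6J came Rela at 28.1 ± 2.88, Tnfaip3 at 26.8 ± 1.19 and Nfkbie at 20.9 ± 1.81 RPKM. Rela and Tnfaip3 did not differ beyond their spread there, since their libraries ran from 25.5 to 32.6 and from 26.0 to 27.8 RPKM. In NOD the order of these genes was Nfkbie at 29.5 ± 1.73, Tnfaip3 at 24.0 ± 0.916 and Rela at 23.9 ± 2.02 RPKM. The NOD libraries of Nfkbie (26.6 to 31.5 RPKM) overlapped those of Rela (21.6 to 27.5 RPKM) but not those of Tnfaip3 (22.5 to 25.7 RPKM). Within each NOD library, however, Rela had 0.740 to 0.927 times the reads of Nfkbie, with merged exons of 3072 and 3045 bases. By the longest transcript, Nfkbie and Rela stood at 28.6 and 28.7 RPKM in NOD sample 2. By merged exons Nfkbie ranked 4 of the 10 in C57BL/6J and 2 in NOD, places that rest on a strain difference that did not pass the test.

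Lower in the order were Nfkbib (9.23 ± 2.19 RPKM in C57BL/6J, 8.61 ± 0.912 in NOD), Nfkb1 (7.92 ± 1.03 and 7.77 ± 0.340) and Ikbkb (5.91 ± 1.08 and 6.75 ± 0.506), neighbours whose C57BL/6J libraries overlapped. Nfkb2 (5.40 ± 0.211 and 4.05 ± 0.0736) and Rel (3.91 ± 0.655 and 3.97 ± 0.129) followed, and Relb closed the order at 1.45 ± 0.158 and 1.99 ± 0.0614 RPKM. The levels of Nfkb1 and Ikbkb depend on the length used. Their merged exons span 12061 and 19078 bases, and their longest annotated transcripts 4149 and 4845 bases. By the longest transcript Nfkb1 stood at 23.0 ± 3.00 RPKM in C57BL/6J and 22.6 ± 0.989 in NOD, and Ikbkb at 23.3 ± 4.25 and 26.6 ± 1.99, close to Rela at 31.8 ± 3.26 and 27.1 ± 2.28 RPKM.

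**Figure D4:**
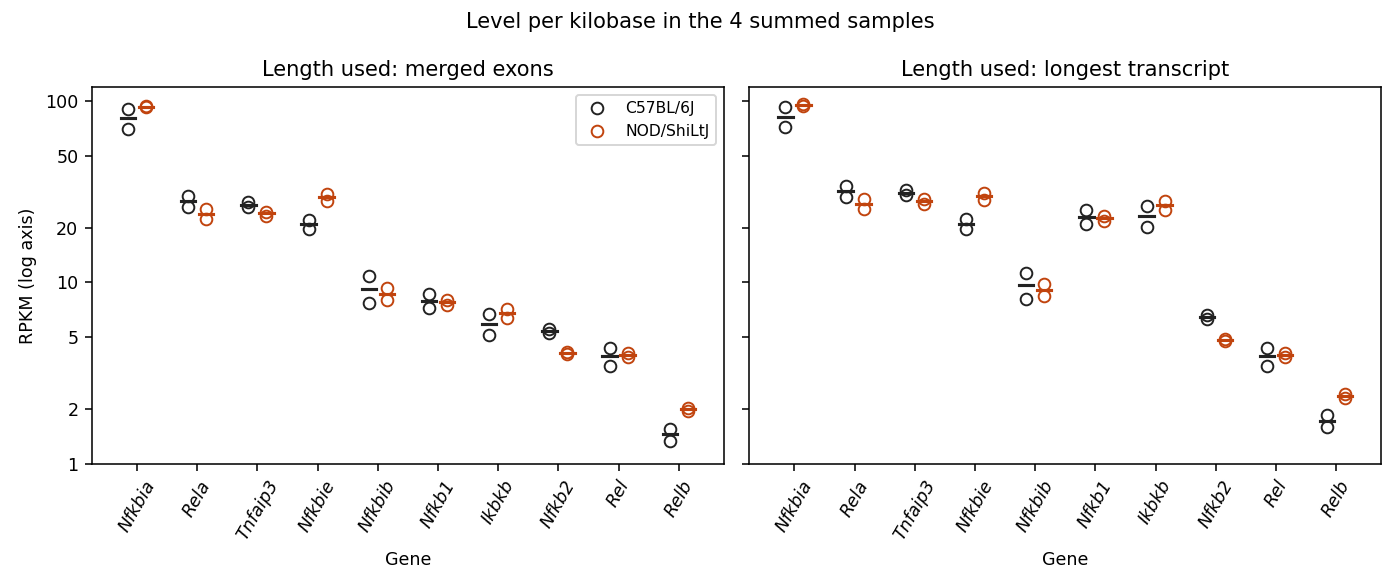
RPKM (log y axis) of the 10 genes (x axis, ordered by mean level per merged exon length) in the 4 summed samples, per kilobase of merged exons (left) and of the longest annotated transcript (right); circles are samples and horizontal lines the mean of a strain, black for C57BL/6J and orange for NOD/ShiLtJ. Nfkbia is highest and Relb lowest in both panels, and Nfkb1 and Ikbkb move up in the right panel.

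As shares of the summed RPKM of the 5 subunits, Rela made up 63.2% and 56.8% in C57BL/6J samples 1 and 2 and 56.4% and 58.2% in the NOD samples. Nfkb1 held 15.1% and 18.9% in C57BL/6J and 18.9% and 18.4% in NOD. By the longest transcript these shares became 43.6% to 51.1% for Rela and 31.4% to 37.6% for Nfkb1, so the split between them depends on the length used. Rela and Nfkb1 were the most abundant subunits in every sample by either length. Relb held 2.82% and 3.41% in C57BL/6J and 4.87% and 4.66% in NOD, the smallest share in every sample.

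Ratios of reads between genes within a library are free of the scaling between libraries, and were described for all 45 pairs of the 10 genes. In 13 pairs (28.9%) the ranges of the strains were separate, against 17.4% of all pairs of the 16231 tested genes with at least 1 read in every library, and 18.2% of those with at least 42 reads. The 13 pairs involved Relb in 5, Nfkbia and Nfkbie in 4 each, and Rel and Ikbkb in 0 of the 9 pairs each gene has. The reads of Nfkbia relative to Rela, an inhibitor and the subunit it binds, numbered 1.57 and 1.41 in the C57BL/6J samples and 2.15 and 1.95 in the NOD samples, with libraries at 1.39 to 1.58 and 1.92 to 2.18. Rela relative to Nfkbie stood at 1.37 and 1.34 in C57BL/6J and at 0.740 and 0.906 in NOD. Nfkb2 relative to Relb, the partners of the alternative dimer, stood at 4.88 and 3.96 in C57BL/6J and at 2.43 and 2.39 in NOD. These pairs were named after their values were seen, the pairs share genes, and no test was made.

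The libraries of a strain also differed in the share of reads outside annotated genes. In the library of each strain with the smallest such share, C57BL/6J sample 1 library 1 (39.98%) and NOD sample 2 library 2 (46.56%), Rela, Nfkbia and Nfkbib were the highest of the 4 libraries and Ikbkb the lowest. Counted over the 10 genes, 6 were at an extreme in that library in each strain, against 64.9% of all tested genes in C57BL/6J and 60.1% in NOD, and 4 were at the same extreme in both strains, against 34.5%. These shares lie near those of all tested genes. Rela stood at 100.2 CPM there against 78.5 to 86.1 CPM in the other C57BL/6J libraries, and at 84.5 against 66.4 to 71.8 CPM in NOD. Ikbkb stood at 92.1 against 109.6 to 134 CPM and at 105 against 134 to 136 CPM. The part of these libraries in the strain differences was not tested beyond leaving both libraries out, which called 0 of the 10 genes and gave Nfkbie a difference of 0.38 (adjusted p = 0.309).

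The rest of the pathway was described with 5 further lists. Inhibitors and negative regulators beyond the 10 genes had 0 of 19 tested members past the threshold (1 at an unadjusted p under 0.05), with a median log2 difference of -0.01 (-0.03 to 0.05 over the alternatives). Limma with voom called 1 of them, Commd1, a protein linked to the turnover of p65, and DESeq2 called 0. The most abundant were Tax1bp1, an adaptor of A20, at 416 ± 12.4 and 409.8 ± 0.121 CPM, the ubiquitin ligase Itch at 171 ± 12.4 and 179.9 ± 13.1 CPM, and Tnip1, which binds A20, at 142 ± 17.6 and 125 ± 5.77 CPM. Their adjusted p-values were 0.772 to 0.974 (edgeR).

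Among kinases, adaptors and signalling complexes, 0 of 35 were higher and 1 lower in NOD, against 1.78% of all tested genes called lower. That gene was Tab1, a partner of the kinase TAK1 that acts upstream of the IkappaB kinase. It fell from 54.4, 57.1, 49.8 and 47.0 CPM in the C57BL/6J libraries to 26.8, 25.7, 25.7 and 22.4 CPM in the NOD libraries, a gap with no overlap. The difference was -1.03 ± 0.18 (adjusted p = 0.0156). Leaving out C57BL/6J sample 1 gave an adjusted p of 0.169, and leaving out sample 2 of that strain 0.0582. The partner adaptor Tab2 stood at 222 ± 19.6 and 202 ± 21.4 CPM (adjusted p = 0.855). Skp1a, a part of the ligase that marks IkappaB for degradation, stood at 350.3 ± 32.2 and 376 ± 83.9 CPM (adjusted p = 0.904). Prkcq, the kinase that links the T cell receptor to NF-kappaB, stood at 268 ± 26.0 and 293 ± 44.4 CPM (adjusted p = 0.865).

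Of 18 tested receptors that feed the pathway, 1 was higher and 0 lower in NOD (1.91% of all tested genes were called higher), and the median was 0.51 beside 0.02 for all tested genes, with a range of 0.36 to 1.08 over the alternatives. At an unadjusted p under 0.05 there were 5 of the 18, and all NOD libraries lay above for 5, against 13.1% and 8.14% of all tested genes. All NOD libraries lay below for 1, Tnfrsf1a, against 1555 of all 17291 tested genes. Tnfrsf14 encodes HVEM and rose from 10.5 ± 0.516 to 24.3 ± 2.48 CPM (1.22 ± 0.23, adjusted p = 0.0200; 0.144 or 0.135 when C57BL/6J sample 1 or 2 was left out). Cd27, a costimulatory receptor, was the most abundant at 297 ± 32.7 and 370.4 ± 46.1 CPM (adjusted p = 0.545). Tnfrsf1a, a receptor of tumour necrosis factor, stood at 82.6 ± 6.12 and 67.2 ± 2.81 CPM (adjusted p = 0.535), and the Toll-like receptor gene Tlr12 at 31.8 ± 2.68 and 28.1 ± 0.899 CPM (adjusted p = 0.815). Many of the scarcer receptors of this list are expressed by B cells and myeloid cells, whose markers stood as follows. Of 10 tested myeloid and dendritic cell markers, 1 was called higher in NOD, against 1.91% of all tested genes. The summed level of the list was 12.5 to 15.5 CPM in C57BL/6J libraries and 16.9 to 28.7 CPM in NOD libraries. Csf1r, a receptor of macrophages, stood at 0.643 ± 0.278 and 3.56 ± 0.366 CPM (adjusted p = 0.0233, edgeR), Lyz2 at 3.85 ± 0.862 and 9.55 ± 3.43 CPM and Cd68 at 2.26 ± 0.192 and 2.76 ± 0.282 CPM. Fitted values were above 0 for 8 of the 10 and below for 2. The 2 were Itgam (1.82 ± 0.577 and 1.35 ± 0.337 CPM) and Fcer1g (0.775 ± 0.222 and 0.528 ± 0.0237 CPM). Of 8 B cell markers 0 passed, with sums of 342 to 413 and 258 to 425 CPM carried mostly by Ighm at 346 ± 15.0 and 298 ± 56.5 CPM. Igkc was at 2.57 ± 2.20 and 32.2 ± 31.9 CPM and Cd79b at 12.9 ± 5.60 and 9.94 ± 1.27 CPM. No marker of either list was at 0 in every library, and the part of such cells in the receptor values was not tested.

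Ligands had 0 of 10 tested members past the threshold (1 at an unadjusted p under 0.05, 0 with DESeq2 and with limma), with a median of 0.12. That median changed sign without a filter on low counts (-0.11) and when C57BL/6J sample 1 (-0.06) or NOD sample 1 (-0.05) was left out. Ltb, lymphotoxin beta, was the most abundant at 41.6 ± 10.3 and 33.2 ± 0.219 CPM (adjusted p = 0.635), followed by Tnfsf10, or TRAIL, at 10.1 ± 0.404 and 10.7 ± 0.382 CPM and Tnfsf14, the ligand of HVEM, at 3.22 ± 0.136 and 4.17 ± 1.69 CPM. Of 26 tested target genes, 1 was higher and 0 lower in NOD, against 1.91% and 1.78% of all tested genes, with a median of 0.04. At an unadjusted p under 0.05 there were 8 of the 26, and all NOD libraries lay above all C57BL/6J libraries for 6, against 13.1% and 8.14% of all tested genes. All NOD libraries lay below for 1, Il2ra, against 1555 of all 17291 tested genes. The called gene was Cd44, which encodes a receptor of hyaluronan and rose from 11.9 ± 0.920 to 24.1 ± 3.21 CPM (1.02 ± 0.23, adjusted p = 0.0474). Its adjusted p became 0.361 or 0.174 when C57BL/6J sample 1 or 2 was left out, 0.129 when NOD sample 1 was left out and 0.106 under a replicate block. The survival genes Bcl2l1 (257 ± 35.8 and 251 ± 28.0 CPM) and Cflar (159.6 ± 25.0 and 148 ± 0.244 CPM) and the induced gene Tnfaip8 (187 ± 25.2 and 272 ± 62.7 CPM, adjusted p = 0.256) were the most abundant targets.

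**Figure D5:**
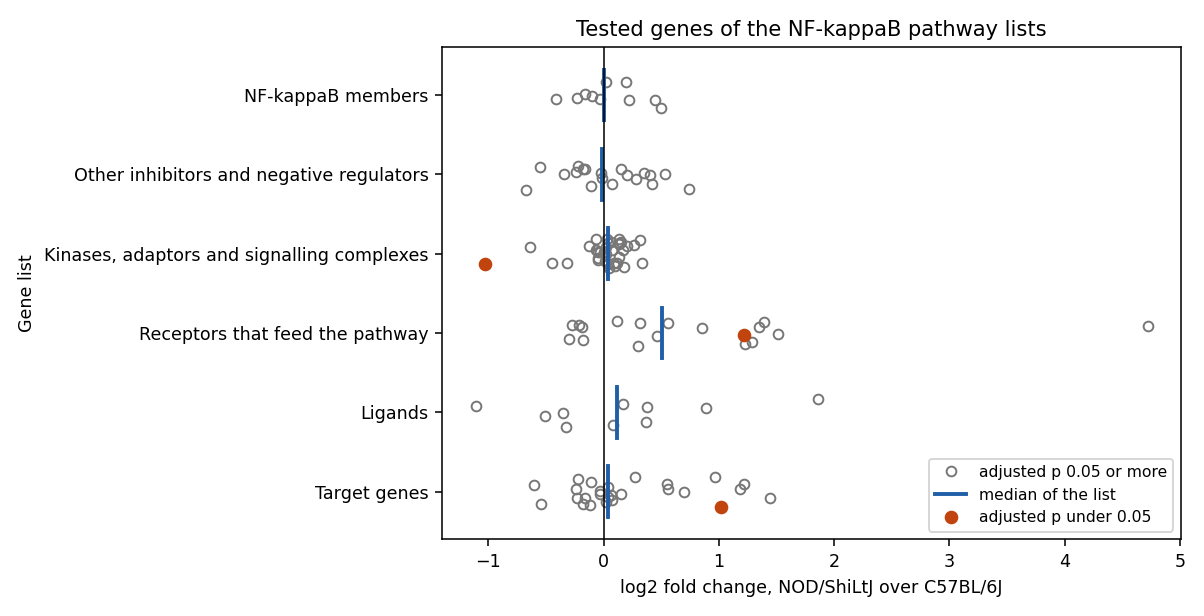
Fitted log2 fold change (x axis, NOD/ShiLtJ over C57BL/6J, edgeR) of each tested gene in the 10-gene set (labelled NF-kappaB members) and in 5 further pathway lists (y axis, points spread vertically for visibility); filled points have an adjusted p under 0.05 and blue bars are list medians. The filled points are Tab1 (-1.03), Tnfrsf14 (1.22) and Cd44 (1.02), and the 10 genes all lie between -0.41 and 0.50.

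Beside the target and receptor lists, markers of mature single-positive thymocytes, the stage that follows positive selection, had 0 of 19 past the threshold. At an unadjusted p under 0.05 there were 5, against 13.1% of all tested genes. Il7r and Cd69 are among these 5 and are also on the target list, so the lists are not independent. Of the 19, 14 had a fitted value above 0, against 9043 of all 17291 tested genes. The summed level of the 19 was 931 to 1014 CPM in C57BL/6J libraries and 954 to 1099.5 CPM in NOD libraries. Ikzf2 stood at 169.7 ± 32.0 and 193 ± 22.7 CPM, Cd5 at 159 ± 26.5 and 179.9 ± 3.45 CPM and Gata3 at 118 ± 0.568 and 142 ± 9.30 CPM. Of 5 tested epithelial and stromal markers and 7 tested erythroid and natural killer cell markers 0 passed. At an unadjusted p under 0.05 there were 1 and 2, against 13.1% of all tested genes. The summed level of the first list was 139.7 to 172 CPM in C57BL/6J libraries and 130.5 to 147 CPM in NOD libraries, mostly Pecam1 (147 and 132 CPM), with Epcam at 5.03 and 6.55 CPM and Pdgfrb at 2.56 and 1.35 CPM. This sum follows Pecam1, while Cdh5 of the same list stood at 0.193 and 0.153 CPM. Krt5, the marker of this list with an unadjusted p under 0.05 (0.0231, edgeR), was at 0.191 and 0.649 CPM. Fitted values were above 0 for 3 of the 5 and below for 2. The summed level of the second list was 6.62 to 14.3 and 9.79 to 20.7 CPM, with Prf1 (4.92 CPM in C57BL/6J), Hbb-bs at 2.41 and 4.45 CPM and Hba-a1 at 0.344 and 1.33 CPM. The part of any of these cells in the values of the 10 genes was not tested.

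Genes annotated across the 10 loci were few. Nfkb1 holds Gm43430 on its own strand without exon overlap, at 7.77 and 7.99 CPM. Psd overlaps exons of Nfkb2 on the opposite strand at 0.214 and 0.211 CPM, Ccer2 overlaps Nfkbib at 0 and 0.021 CPM, and Gm15346 lies opposite Ikbkb at 0 and 0.021 CPM. AC114539.1, which also overlaps exons of Nfkb2, was not analysed here.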

How the data were processed

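For each library the authors deposited raw counts, that is, unnormalized whole numbers of reads for every Ensembl gene. The alignment (STAR 2.5.0a, to GRCm38, the C57BL/6J reference) and the counting (HTSeq 0.6.1) are named per the submitters' processing notes; annotation release, strand setting and filters: not given in the sources used here. Reads outside genes and reads assigned to several genes (0.69% to 2.38% of listed reads) were left out. Of 53465 genes, 53360 matched GENCODE M21, which gave symbols and coordinates.

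Libraries sharing strain and B number were summed (23.81, 24.229, 47.237 and 55.647 M reads in genes). Genes passing filterByExpr were scaled by TMM, and strain, with no other term, was tested two-sided in edgeR 4.0.16 (R 4.3.3; robust quasi-likelihood fit leaving 2 degrees of freedom), with Benjamini-Hochberg adjustment over all tested genes. Alternatives used DESeq2 1.42.0 and limma 3.58.1 (voom on 8 libraries, sample as a random block, consensus correlation 0.443), another scaling, no filter, thinned depth, a replicate block and omitted samples. Same-numbered samples of the strains were not paired (correlation of deviations -0.123).

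The 10 genes and the lists were chosen with earlier results of these data known. Named from each pathway list were all genes past the threshold and the 3 most abundant, and from the marker lists described the 3 most abundant. RPKM are TMM-scaled CPM per kilobase. Counts are reads, not molecules.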

Additional observations from a re-analysis of the deposited data

Results flagged for a closer look

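Within the 4 libraries of a strain, 2 values lay far from the other 3 by Dixon's ratio, out of 20 groups examined (10 genes in 2 strains). With 4 independent values, chance alone gives about 1 in 20. Libraries of a sample are not independent and the genes share the libraries, so that rate need not hold here. Relb stood at 4.28 CPM in C57BL/6J sample 1 library 2, against 5.95 to 6.18 CPM in the other C57BL/6J libraries. Ikbkb stood at 105 CPM in NOD sample 2 library 2, against 134 to 136 CPM in the other NOD libraries. That library also had the smallest share of reads outside annotated genes in its strain (46.56%).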

How the results depend on the processing

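None of the 10 genes was called under any of the 11 alternatives in which they were fitted, and Nfkb2, Rela, Relb, Nfkbia, Nfkbie, Tnfaip3 and Ikbkb kept their sign in all of them. With 1 sample left out in turn, the lone sample being assumed to vary like the others, the log2 difference ranged from -0.16 to 0.10 for Nfkb1, from -0.14 to 0.20 for Rel and from -0.33 to 0.16 for Nfkbib. Nfkb1 was at 0.0074 without the library of each strain with the fewest reads outside genes, and Rel at -0.005 with NOD thinned to the C57BL/6J depth. All genes called numbered 637, with 1188 when no filter was used and 256 to 1389 with 1 sample left out (256 and 359 without C57BL/6J samples 1 and 2, 1389 without NOD sample 2). In the same omissions the called kinases and adaptors numbered 0 to 1, the receptors 0 to 2 and the targets 0 to 5. Receptors called numbered 3 without a filter and with DESeq2, and 2 without the 2 libraries named above. Targets called numbered 5 without a filter, 3 with DESeq2 and 0 with thinned NOD counts. Negative regulators called numbered 1 with voom. The replicate block called 513 genes in all and 0 targets, and the crossed replicate block, chosen after seeing the data, 768 genes. By the longest transcript the places by mean level over all samples were 3 for Rela, 2 for Tnfaip3, 7 for Nfkbib and 5 for Ikbkb (2, 3, 5 and 7 by merged exons). Without TMM factors, also chosen after seeing the data, 2 genes had libraries that did not overlap. The cause of these changes was not tested. Of 55 list medians under alternatives, 14 moved by more than the spread between samples.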

Other observations

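Some pathway genes that missed the threshold had libraries that did not overlap between the strains, and part of them are named here after their values were seen. With called genes counted, all NOD libraries lay above for 1 of 19 negative regulators and 1 of 35 kinases and adaptors. The same held for 5 of 18 receptors, 0 of 10 ligands and 6 of 26 targets. All NOD libraries lay below for 2, 3, 1, 0 and 1 genes, in the same order. Of all 17291 tested genes, 1408 were above and 1555 below. Cd69, an early activation antigen, was at 38.6 to 48.0 CPM in the C57BL/6J libraries and at 57.8 to 114 CPM in NOD (adjusted p = 0.0801, edgeR; called by DESeq2). The interleukin 7 receptor gene Il7r was at 2.72 to 6.30 CPM in C57BL/6J and 6.91 to 17.4 CPM in NOD (adjusted p = 0.168; called by DESeq2), and Bcl2 at 21.1 to 33.5 and 35.2 to 48.9 CPM (adjusted p = 0.148). For all 3 genes both libraries of NOD sample 1 were above both of NOD sample 2. The Toll-like receptor genes Tlr6 and Tlr7 were at 0.882 to 2.80 and 1.44 to 3.26 CPM in C57BL/6J and at 4.52 to 5.44 and 5.60 to 6.76 CPM in NOD (adjusted p = 0.0974 and 0.129, both called by DESeq2). Cd40, the receptor farthest to the right in the plot of pathway lists, rests on 65 reads over all 8 libraries, at 0 to 0.063 CPM in C57BL/6J libraries and 0.132 to 1.46 CPM in NOD libraries (adjusted p = 0.0804). Commd1 was at 31.7 to 38.8 CPM in C57BL/6J and 19.4 to 24.8 CPM in NOD (adjusted p = 0.130). Usp18, Btrc, Ube2v1, Tnfrsf1a and Il2ra also had all NOD libraries below (adjusted p = 0.354 to 0.589, edgeR). For Il2ra the libraries were at 15.3 to 19.4 CPM in C57BL/6J and 9.22 to 13.6 CPM in NOD.

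Outside the 10 genes, a kappaB decamer match in the RefSeq window was found for 7 of 14 other inhibitors and negative regulators, 6 of 23 target genes (26.1%), 4 of 22 receptors (18.2%), 1 of 11 ligands (9.09%) and 2 of 28 kinases and adaptors (7.14%), beside 5.14% of all genes with a window. The lists were chosen for their known relation to the pathway, and no test was made of these counts.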
